A study of Mus musculus with 6 samples.

Results

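The vascular endothelial identity genes are 10 genes, Pecam1, Cdh5, Kdr, Flt1, Tie1, Tek, Cldn5, Esam, Emcn and Egfl7, that mark the cells lining blood vessels. They were chosen by symbol from a table of 54532 mouse genes, and each symbol matched 1 row. The samples were sciatic nerves at postnatal day 3 (P3) from 3 control mice and 3 Dok6 mutant mice on a C57BL/6 background, sequenced as whole tissue. DOK6 is an adapter protein that acts downstream of receptor tyrosine kinases in neurons, and the study asked what its loss does to peripheral nerve. Controls were wild type (WT) for Dok6. Mutants were Dok6-/-, in which exon 3 had been removed from a Dok6 fl/fl allele by EIIA-cre, a Cre active in the early embryo, so the deletion is carried by all cells, endothelium included. No other allele or agent was given for either group.

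Endothelial cells form the inner wall of vessels. VEGF receptors (Kdr, Flt1) and angiopoietin receptors (Tek, Tie1) pass growth and stability signals into them, while VE-cadherin (Cdh5), PECAM1, claudin 5 (Cldn5) and ESAM hold neighbouring cells together. In peripheral nerve, vessels of the endoneurium form the blood-nerve barrier, and a tight barrier of the same kind lines the vessels of the brain and spinal cord.

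The 6 libraries held 17699904 to 18678170 counts, and 17099 genes had enough counts to be tested, all 10 endothelial identity genes among them. Levels are given as CPM, counts per M counts of the library after TMM scaling, and 3 counts, taken as the smallest detectable level, corresponded to between 0.156 and 0.172 CPM. This floor covers counting error only. Dok6 itself was at 17.8, 11.9 and 17.5 CPM in controls 1, 2 and 3 and at 7.26, 5.78 and 7.15 CPM in mutants 1, 2 and 3, a log2 fold change of -1.23 ± 0.20 (SE, n = 3 against 3; edgeR quasi-likelihood test, Benjamini-Hochberg adjusted p = 0.0118). The genotypes did not overlap, in the direction of their labels.

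The labelled tissue was checked against its markers. Of 11 Schwann cell markers, 7 were above 1 CPM in every library. The sum of the 11 was between 154 and 232 CPM in controls and between 284 and 1529 CPM in mutants. In controls the highest on average were Sox10, at 71.1 ± 33.4 CPM, and Drp2, at 54.5 ± 6.54. Egr2 was at 0.860 ± 0.414 and Dhh at 0.745 ± 0.377 CPM there (mean ± SD, n = 3). All 14 markers of the central nervous system that were listed, such as the astrocyte genes Gfap and Aqp4 and the interneuron gene Gad1, were above 1 CPM in every library. Their sum was between 2990 and 3655 CPM in controls and between 2594 and 3939 CPM in mutants. These levels go against the label of sciatic nerve, as does the label's cell type, nerve cell, for a whole tissue, and vessels of nerve and of central tissue cannot be told apart here. Mutant 2 stood apart by its Schwann cell markers and mutant 1 by its vascular smooth muscle markers.

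All 10 endothelial identity genes were detected above 1 CPM in every library, and all 10 had a higher fitted level in Dok6 mutants than in controls. The genotype difference passed the test for 4 of the 10 (40.0%), the receptors Flt1, Kdr and Tek and the sialomucin gene Emcn. Among all genes tested, 8.62% were called higher. With these 4 included, 8 of the 10 had a higher level at an unadjusted p under 0.05, as 18.02% of all genes did. None of the 10 was called lower, where 6.01% of all genes were, and none was lower at an unadjusted p under 0.05 by edgeR, DESeq2 or limma voom. The median log2 fold change of the 10 genes was 0.81, beside 0.01 over all genes tested. In 5 of the 10 genes, the 3 mutant values lay above the 3 control values, as they did in 19.6% of all genes. With a log2 fold change above 1 asked for as well, 1 of the 10 remained, Flt1, where 3.58% of all genes did. Flt1 lay at that limit, and 0 members passed it with limma voom, with the replicate number as a block, or without control 2, control 3 or mutant 3. No member passed a log2 fold change above 2, the size the study asked of its own genes, which 1.08% of all genes passed by edgeR. As the nerves were sequenced whole, more endothelial cells and more RNA per endothelial cell cannot be told apart. Fibroblast and skeletal muscle markers summed higher in every mutant than in every control too, and their part in these values was not tested.

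**Figure D1:**
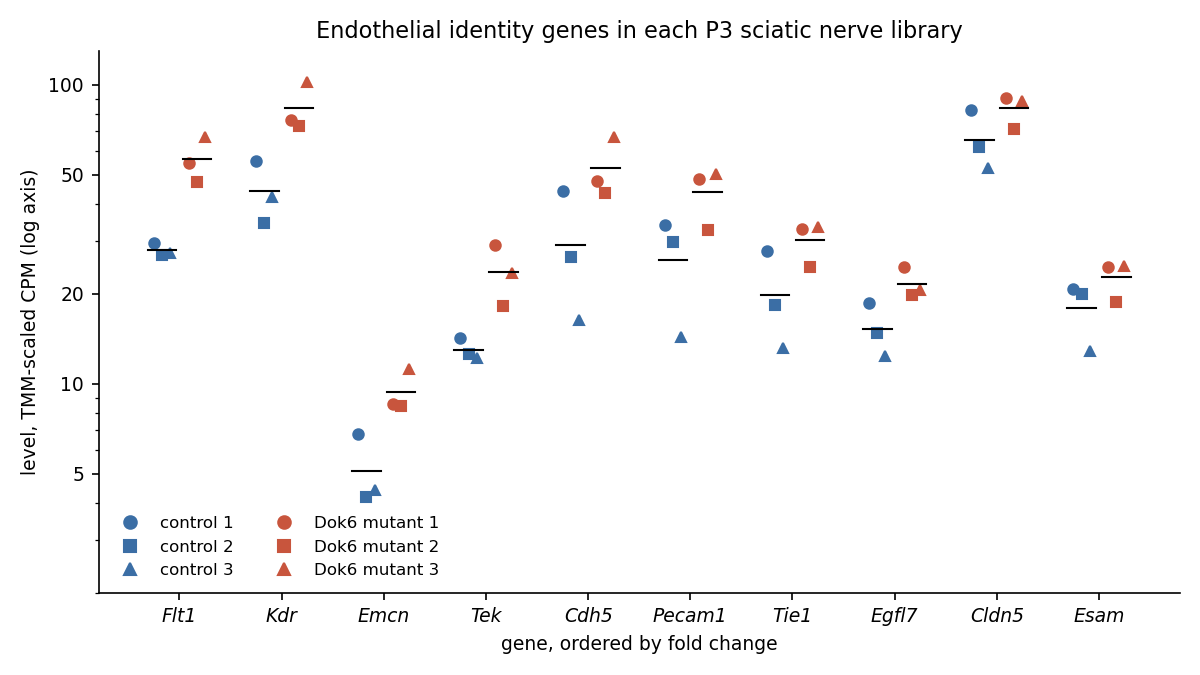
Level of each endothelial identity gene in each library, in TMM-scaled CPM on a log axis, with controls in blue, Dok6 mutants in red and the group mean of 3 libraries as a black line. The genotypes are separate for Flt1, Kdr, Emcn, Tek and Egfl7 and overlap for the other 5 genes.

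The count of 4 depended on single libraries. It was 0 without control 2, when 68 genes were called in all and 5 members, beside 13.1% of all genes, were higher at an unadjusted p under 0.05 by edgeR. It was 1 without control 3, 2 without mutant 1 and 7 without control 1. Without mutant 2, the library rich in Schwann cell RNA, it was 3. In the same order, the share of all genes called higher in these fits was 0.318%, 5.72%, 3.99%, 5.56% and 3.16%. All 10 fold changes stayed positive in each of these fits. The median log2 fold change of the 10 was between 0.52, without control 3, and 0.97, without control 1, as each library was left out.

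The upstream sequences of the 4 genes that passed are shown with that of Cldn5, the most abundant of the 10 per length, which did not pass. Transcription factors of the ETS family, which bind a GGAA core, act on many endothelial genes. The sequences are RefSeq's, on GRCm38.p6, of the 250 bases before each transcription start, written 5′ to 3′ on the strand of the gene, and capitals mark GGAA on either strand (TTCC where it is on the other). RefSeq start sites were given for 7 of the 10 genes, Egfl7 with several starts.
Flt1 (chr5:147726012-147726261, minus strand): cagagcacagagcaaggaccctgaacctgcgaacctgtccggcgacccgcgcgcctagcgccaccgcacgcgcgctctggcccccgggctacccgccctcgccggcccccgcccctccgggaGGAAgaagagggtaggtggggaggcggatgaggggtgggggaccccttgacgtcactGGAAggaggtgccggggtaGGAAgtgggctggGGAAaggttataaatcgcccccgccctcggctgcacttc
Kdr (chr5:75978456-75978705, minus strand): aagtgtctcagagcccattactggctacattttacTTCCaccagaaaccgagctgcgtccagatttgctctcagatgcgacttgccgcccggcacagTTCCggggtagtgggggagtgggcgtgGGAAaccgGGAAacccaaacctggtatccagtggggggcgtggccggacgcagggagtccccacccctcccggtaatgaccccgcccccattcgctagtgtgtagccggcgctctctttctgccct
Tek (chr4:94739039-94739288, plus strand): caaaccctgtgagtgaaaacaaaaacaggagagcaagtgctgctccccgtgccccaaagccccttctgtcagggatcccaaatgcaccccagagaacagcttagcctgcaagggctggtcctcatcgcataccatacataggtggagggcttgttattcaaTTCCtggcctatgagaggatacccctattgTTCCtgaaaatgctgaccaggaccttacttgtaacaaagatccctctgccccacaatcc
Emcn (chr3:137340828-137341077, plus strand): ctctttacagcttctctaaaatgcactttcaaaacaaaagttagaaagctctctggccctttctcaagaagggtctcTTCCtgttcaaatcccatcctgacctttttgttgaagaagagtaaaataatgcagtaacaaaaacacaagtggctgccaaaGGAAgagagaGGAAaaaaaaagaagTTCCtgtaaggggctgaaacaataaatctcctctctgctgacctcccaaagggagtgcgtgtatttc
Cldn5 (chr16:18776597-18776846, plus strand): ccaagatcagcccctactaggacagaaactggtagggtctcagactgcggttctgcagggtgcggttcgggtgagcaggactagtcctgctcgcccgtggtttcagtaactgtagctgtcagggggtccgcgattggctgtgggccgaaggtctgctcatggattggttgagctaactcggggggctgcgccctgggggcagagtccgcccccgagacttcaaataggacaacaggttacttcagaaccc

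The windows of Flt1, Kdr and Emcn each held 4 GGAA cores, that of Tek 2 and that of Cldn5 0. Among all 32851 promoters of this length, the median was 3, and 93.4% held at least 1. The window of Tie1, which is not shown, held 7, as many as or more than which 3.82% of promoters held. The windows of Egfl7, also not shown, held 5, 3 and 1, and neither Tie1 nor Egfl7 passed the test. The longer form CAGGAA, searched on both strands and including the shorter core, was in the windows of Emcn, Tek, Tie1 and Egfl7 (5 of 9 windows), and in 25.7% of all promoters. GGGTGG, a core bound by KLF factors, was in 4 of the 9 windows, those of Flt1, Kdr, Tie1 and 1 start of Egfl7, and in 28.1% of all promoters. ACAAT, a SOX core, was in the windows of Emcn and Tek, and in 27.7% of all promoters. The core of GATA factors, searched as AGATAA, was in 0 of the 9 windows and in 9.99% of all promoters. A high affinity ETS form that includes the shorter core, CCGGAAG, was in 0 of the 9 and in 6.91% of all promoters. TATAAA, the TATA box, was in the window of Flt1 alone among the 9, starting 31 bases before the start site, and in 12.4% of all promoters.

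The VEGF receptors were the members with the highest fitted differences. Flt1 (ENSMUSG00000029648, chr5:147561604-147726011, minus strand, GRCm38) encodes VEGFR1, which binds VEGF-A with high affinity and acts in part as a decoy. It was at 29.6, 27.0 and 27.4 CPM in the controls and at 54.9, 47.3 and 66.9 CPM in the mutants. The controls lay within a narrow range, with a coefficient of variation of 4.86%, the lowest of the 10 genes, and every mutant was well above them. The log2 fold change was 1.01 ± 0.13 (SE, n = 3 against 3; edgeR adjusted p = 0.0072), a 2.01-fold higher level. Kdr (ENSMUSG00000062960, chr5:75932827-75978458, minus strand), which encodes VEGFR2, the main signalling receptor of VEGF-A, was at 55.7, 34.6 and 42.0 CPM in the controls and at 76.1, 72.7 and 102 CPM in the mutants. The genotypes did not overlap, though control 1 stood above the other controls and mutant 3 above the other mutants. Its log2 fold change was 0.92 ± 0.19 (SE, n = 3 against 3; edgeR adjusted p = 0.0206).

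The fold changes of Flt1 and Kdr lay close together. Per kb of gene length, the ratio of Flt1 to Kdr on the log2 scale was -1.21 ± 0.28 in controls and -1.15 ± 0.08 in mutants (mean ± SD, n = 3 each). The difference of 0.06 did not exceed the spread between libraries (two-sided exact permutation test, p = 0.8, where 3 against 3 cannot go below 0.1). Leaving out control 1 turned its sign, and it was between -0.08 and 0.20 with each left out.

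Tek and Tie1 encode the angiopoietin receptor TIE2 and its partner TIE1, which modulates it. Tek (ENSMUSG00000006386, chr4:94739289-94874976, plus strand) was at 14.2, 12.6 and 12.2 CPM in the controls and at 29.0, 18.3 and 23.5 CPM in the mutants. The controls again lay close together, and mutant 1 was the highest library. The log2 fold change was 0.86 ± 0.18 (SE, n = 3 against 3; edgeR adjusted p = 0.0209). Tie1 (ENSMUSG00000033191, chr4:118471191-118490061, minus strand) was at 27.9, 18.3 and 13.2 CPM in the controls and at 32.9, 24.6 and 33.4 CPM in the mutants. Control 1 was above mutant 2, so the genotypes overlapped. Its log2 fold change of 0.62 ± 0.25 did not pass the test (SE, n = 3 against 3; edgeR adjusted p = 0.125). It was 0.95 without control 1, when it passed (edgeR adjusted p = 0.0384, between 0.0384 and 0.31 over its 14 alternatives), and 0.40 without control 3. That one receptor passed and the other did not does not show that they differed. The log2 ratio of Tie1 to Tek per kb was 0.48 ± 0.43 in controls and 0.31 ± 0.17 in mutants (mean ± SD, n = 3 each), a difference of -0.17 (two-sided exact permutation test, p = 0.6). With each library left out in turn it was between -0.38 and 0.05, the latter without control 1.

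Emcn (ENSMUSG00000054690, chr3:137341067-137432185, plus strand), the gene of endomucin, a surface sialomucin of capillary and venous endothelium, was the least abundant member. It was at 6.77, 4.18 and 4.40 CPM in the controls, from 73 to 118 counts, and at 8.56, 8.40 and 11.2 CPM in the mutants, from 154 to 211 counts. The genotypes did not overlap, and the log2 fold change was 0.87 ± 0.23 (SE, n = 3 against 3; edgeR adjusted p = 0.0394). This call was the least stable of the 4, and passed in 8 of 14 alternative fits, where Tek passed in 11, Kdr in 12 and Flt1 in 13.

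Egfl7 (ENSMUSG00000026921, chr2:26580014-26593120, plus strand) encodes a matrix protein that endothelial cells secrete. It was at 18.6, 14.8 and 12.4 CPM in the controls and at 24.6, 19.7 and 20.6 CPM in the mutants. The genotypes did not overlap, yet the log2 fold change of 0.50 ± 0.17 missed the threshold (SE, n = 3 against 3; edgeR adjusted p = 0.0782, between 0.0451 and 0.222 over its 14 alternatives, past it with DESeq2 and without control 1). Egfl7 hosts the microRNA miR-126a, a well known endothelial microRNA, whose mature 3p form is printed from RefSeq (GRCm38.p6, chr2:26591402-26591423, plus strand) with its seed, bases 2 to 8, in capitals, because its hairpin has a row of its own in the table.
mmu-miR-126a-3p: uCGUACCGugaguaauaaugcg
That row covers a hairpin of 73 bases and held 0 counts in all 6 libraries, which allows up to 3 counts in each. Its bases overlap exons of Egfl7, so the row says nothing about the level of the mature microRNA. Egfl7 was also the only member whose exons overlap those of other genes. Of these, Gm20532 and Mir126b held 0 counts in every library. Agpat2, on the opposite strand, held 40 to 78 counts beside 217 to 475 for Egfl7. Whether strand was used in counting is not given in the sources used here, so reads of the shared bases cannot be told apart.

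Cdh5 and Pecam1 had the widest spread among controls. Cdh5 (ENSMUSG00000031871, chr8:104101625-104144511, plus strand), the gene of VE-cadherin, the adhesive core of endothelial adherens junctions, was at 44.3, 26.5 and 16.4 CPM in the controls and at 47.8, 43.5 and 66.8 CPM in the mutants. Control 1 reached above mutant 2 by a small margin, and the coefficient of variation among controls was 48.7%, beside 39.6% for Pecam1 and 37.7% for Tie1. The log2 fold change of 0.86 ± 0.32 was as large as that of Tek but did not pass (SE, n = 3 against 3; edgeR adjusted p = 0.0995). Without control 1 it was 1.30 and passed (edgeR adjusted p = 0.034, between 0.0161 and 0.268 over its 14 alternatives). Pecam1 (ENSMUSG00000020717, chr11:106654217-106750628, minus strand), which encodes the adhesion molecule CD31, was at 33.9, 29.7 and 14.4 CPM in the controls and at 48.5, 32.7 and 50.2 CPM in the mutants. Mutant 2 lay just below control 1 and control 3 far below the other controls. Its log2 fold change of 0.75 ± 0.29 did not pass (SE, n = 3 against 3; edgeR adjusted p = 0.111, between 0.0253 and 0.242 over its 14 alternatives). It was 0.47 without control 3, and it passed with DESeq2 and with no filter on low counts.

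The tight junction genes had the smallest fitted differences. Cldn5 (ENSMUSG00000041378, chr16:18776847-18778262, plus strand), the claudin that seals the blood-brain and blood-nerve barriers, was at 82.3, 61.8 and 52.6 CPM in the controls and at 90.4, 71.3 and 88.5 CPM in the mutants. The log2 fold change was 0.35 ± 0.17 (SE, n = 3 against 3; edgeR adjusted p = 0.179), and control 1 lay above mutant 2. It was 0.55 without control 1 and 0.21 without control 3. Esam (ENSMUSG00000001946, chr9:37528078-37538319, plus strand), an adhesion molecule of endothelial tight junctions and platelets, was at 20.8, 19.9 and 12.9 CPM in the controls and at 24.6, 18.7 and 24.8 CPM in the mutants. Mutant 2 was below controls 1 and 2. Its log2 fold change of 0.35 ± 0.20 did not pass (SE, n = 3 against 3; edgeR adjusted p = 0.260), and was 0.16 without control 3. Neither gene passed in any of the 14 alternatives.

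**Figure D2:**
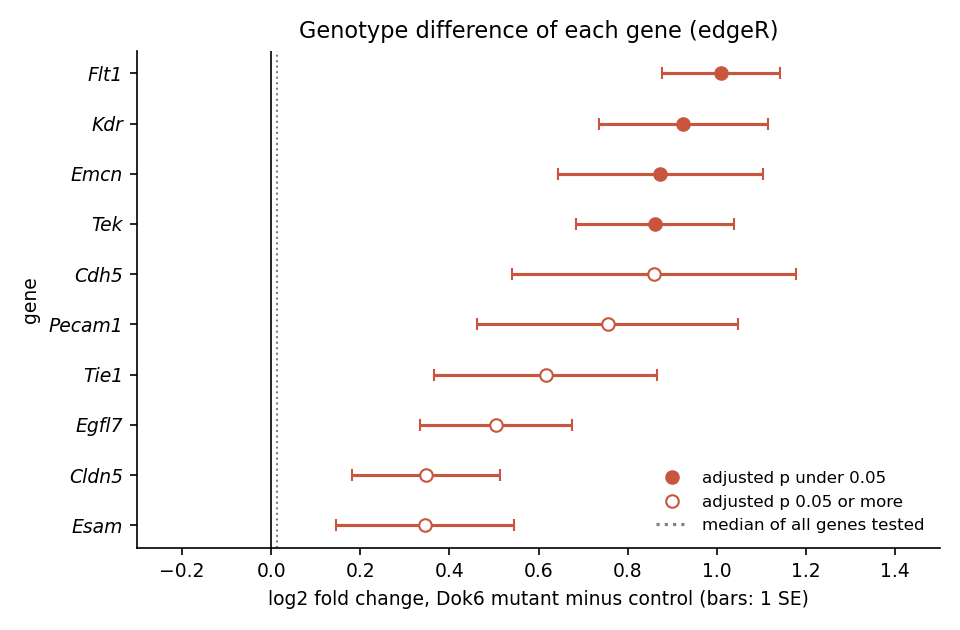
Log2 fold change of each endothelial identity gene, Dok6 mutant minus control, with 1 SE from the edgeR quasi-likelihood fit. Filled points passed at an adjusted p under 0.05, and the dotted line is the median of all genes tested, 0.01. All 10 genes lie to the right of 0, from 0.35 (Esam) to 1.01 (Flt1).

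Among libraries of the same genotype, control 1 was the highest control in 10 of 10 genes, and mutant 2 the lowest mutant in 10 of 10. Control 3 was the lowest control in 7, and the highest mutant was mutant 3 in 7 and mutant 1 in 3. Mutants 1 and 3 lay above every control in all 10 genes, so in each of the 5 genes whose genotypes overlapped it was mutant 2 that lay below control 1. The summed level of the 10 genes was 334, 249 and 208 CPM in the controls and 438, 357 and 488 CPM in the mutants, without overlap.

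**Figure D3:**
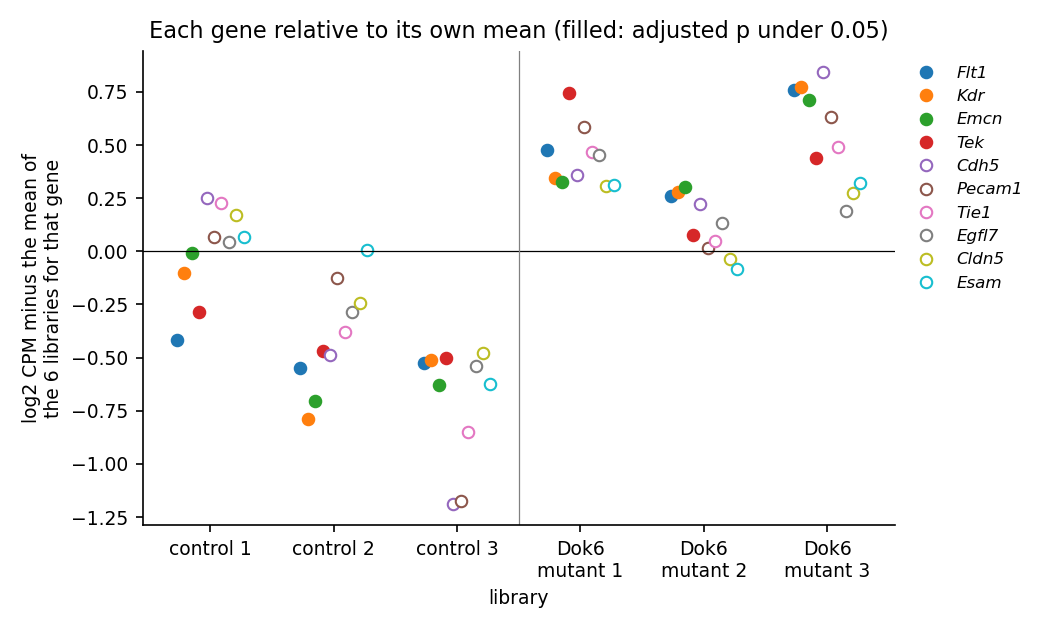
Log2 CPM of each endothelial identity gene minus its mean over the 6 libraries, by library. Filled points are the 4 genes that passed the test. Control 1 was the highest control and mutant 2 the lowest mutant for every gene, and Cdh5 and Pecam1 lay furthest below their means in control 3.

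Scaled by gene length, the order of the genes was nearly the same in both genotypes. Cldn5 was highest by far, at 46.3 ± 10.8 CPM per kb in controls and 58.9 ± 7.44 in mutants (mean ± SD, n = 3 each). Cdh5 was next, at 6.92 ± 3.36 and 12.5 ± 2.94 CPM per kb. Esam was at 6.24 ± 1.52 in controls and 7.92 ± 1.21 in mutants, and Kdr at 4.88 ± 1.18 and 9.27 ± 1.80 CPM per kb, so that Kdr and Esam changed places. Egfl7, Pecam1 and Tie1 lay between 4.03 and 4.26 CPM per kb in controls and between 6.05 and 7.04 in mutants. Tek (2.76 ± 0.23 in controls, 5.01 ± 1.14 in mutants), Flt1 (2.07 ± 0.10 and 4.18 ± 0.73) and Emcn (0.947 ± 0.265 and 1.73 ± 0.29) closed the order. Neighbours in the order mostly did not differ beyond their spread, since the ranges overlapped in 6 of 9 neighbouring pairs in controls and 7 of 9 in mutants. The steps from Cldn5 to Cdh5 and from Flt1 to Emcn were clear of overlap in both genotypes, and that from Tek to Flt1 in controls.

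The share of each gene in the summed length-scaled level of the 10 does not depend on the scaling of the libraries. The share of Cldn5 was 55.4%, 55.4% and 57.9% in the controls and 50.9%, 50.4% and 47.7% in the mutants. The means were 56.3% ± 1.46 and 49.7% ± 1.70 (SD, n = 3 each), a difference of -6.59 percentage points, and the genotypes did not overlap. The share of Esam, 7.59% ± 1.08 and 6.66% ± 0.17, was also lower in every mutant than in every control, but the difference of -0.93 percentage points was -0.31 without control 2, which was at 8.83%. The share of Flt1 was higher in every mutant, at 3.51% ± 0.27 beside 2.60% ± 0.55, a difference of 0.911 percentage points. Without the length scaling the shares of Flt1 overlapped, with control 3 at 13.2% and mutant 1 at 12.6%, and the difference was 2.21 percentage points. For these 3 genes the two-sided exact permutation test gave p = 0.1, the smallest that 3 against 3 allows, and 0.286 after Benjamini-Hochberg adjustment over the 10 genes. The shares of the other 7 genes overlapped between genotypes.

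Ligands and co-receptors of the VEGF family were measured beside their receptors. Of 7 tested genes of this list, 4 were called higher by edgeR and DESeq2 and 3 by limma voom, beside 8.62% of all genes by edgeR. Pgf, the gene of placental growth factor, a ligand of FLT1, was at 3.13 ± 0.38 CPM in controls and 6.78 ± 0.97 in mutants (mean ± SD, n = 3 each; edgeR adjusted p = 0.0152). Vegfa, the ligand of both receptors, was at 29.7 ± 4.29 and 60.5 ± 25.6 CPM (adjusted p = 0.0363), with mutant 3, at 89.8 CPM, well above the other mutants. Flt4, the VEGF-C receptor, was at 5.98 ± 0.91 and 10.6 ± 1.05 CPM (adjusted p = 0.0216), and the co-receptor Nrp1 rose by 0.33 ± 0.09 on the log2 scale (SE, adjusted p = 0.040). Nrp2, the most abundant gene of the list, had a log2 fold change of -0.25 ± 0.15 and did not pass (adjusted p = 0.262). Of 4 tested genes of the angiopoietin pathway, Angpt2, the antagonist ligand of TIE2, passed, at 2.14 ± 1.19 and 5.44 ± 1.55 CPM (edgeR adjusted p = 0.0498). Ptprb, the phosphatase that acts on TIE2, had a log2 fold change of 0.44 ± 0.17 without passing (adjusted p = 0.106), although every mutant was above every control.

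Read against the 8.62% of all genes called higher, 2 of 12 endothelial transcription factors were called higher, Lyl1 and the ETS gene Elk3. Lyl1 was at 1.34 ± 0.54 CPM in controls and 3.29 ± 0.91 in mutants (edgeR adjusted p = 0.0444), and Elk3 at 12.7 ± 3.20 and 21.5 ± 4.64 CPM (adjusted p = 0.0484). Ets1, the most abundant factor, had a log2 fold change of 0.79 ± 0.24 (adjusted p = 0.0614). Of 10 tested Notch and TGF-beta family genes, 2 were called higher, both of them receptors of BMP9 signalling in endothelium, Eng (endoglin, log2 fold change 0.78 ± 0.18, adjusted p = 0.0253) and Acvrl1 (ALK1, 0.97 ± 0.25, adjusted p = 0.0371). Notch1, the most abundant gene of that list, had a value of 0.23 ± 0.13 and did not pass (adjusted p = 0.249).

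Among 20 other genes found across endothelium, 5 were called higher by edgeR and by limma voom and 9 by DESeq2, where edgeR called 8.62% of all genes, limma voom 7.86% and DESeq2 10.6%. The list's median log2 fold change was 0.74. The lectin receptor gene Cd93 rose by 1.44 ± 0.16 on the log2 scale (adjusted p = 0.00611), the sialomucin gene Cd34 by 0.89 ± 0.12 (adjusted p = 0.00739), Tmem88 by 1.70 ± 0.34 (adjusted p = 0.0199) and the matrix gene Mmrn2 by 1.38 ± 0.30 (adjusted p = 0.0237; all SE, edgeR). S1pr1, the sphingosine 1-phosphate receptor, was the most abundant of them and had a log2 fold change of 0.35 ± 0.13 (adjusted p = 0.104).

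All 20 barrier genes of brain and nerve vessels were above 1 CPM in every library, and 2 of the 20 were called higher, the transporters Slc38a5 (log2 fold change 1.33 ± 0.26, adjusted p = 0.0185) and Slc22a8 (0.81 ± 0.19, adjusted p = 0.0287), a share close to that of all genes. The list's median was 0.18, and Spock2, its most abundant gene, had a value of -0.02 ± 0.09 (adjusted p = 0.911). Of 7 tested genes of permeable or fatty acid handling endothelium, 4 were called higher by edgeR, 3 by DESeq2 and 2 by limma voom. Each of the 4 had under 10 counts in at least 1 control, with 1 to 33 counts over the controls, and met the filter on low counts through the mutants, so neither their number nor the list's median is a result about the list. Gpihbp1, which carries lipoprotein lipase across capillaries, was at 0.344 ± 0.263 CPM in controls and 2.22 ± 0.58 in mutants (edgeR adjusted p = 0.0207). The fatty acid binding gene Fabp4 was at 0.363 ± 0.202 and 4.75 ± 3.86 CPM (adjusted p = 0.025), Meox2 at 0.172 ± 0.115 and 1.18 ± 0.59 CPM (adjusted p = 0.0258), and Cd36 at 1.01 ± 0.84 and 6.04 ± 3.44 CPM (adjusted p = 0.0377). Lpl, the most abundant gene of the list, had a log2 fold change of -0.20 ± 0.14 (adjusted p = 0.345).

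Beside 8.62% of all genes called higher and 6.01% called lower, 5 of 8 tested arterial genes were called higher. Of these Gja5, with 1 to 6 counts in the controls, met the filter through the mutants. The others were Unc5b (log2 fold change 1.25 ± 0.15, adjusted p = 0.00716), Sema3g (1.55 ± 0.20, adjusted p = 0.00717), the elastic fibre gene Fbln5 (1.94 ± 0.31, adjusted p = 0.0121) and the chemokine gene Cxcl12 (1.34 ± 0.26, adjusted p = 0.0185; all SE, edgeR). Stmn2, at 1400 ± 160.2 CPM in controls and 1139 ± 133 in mutants, was the most abundant gene of that list and is chiefly a neuronal gene, with a log2 fold change of -0.30 ± 0.12 (adjusted p = 0.134). Of 6 tested venous and activation genes, Ephb4 (1.22 ± 0.26, adjusted p = 0.0216) and the apelin receptor gene Aplnr (1.07 ± 0.28, adjusted p = 0.0402) were called higher. Ackr1, a venular chemokine receptor gene that red cells also express, was called lower, at 61.2 ± 12.4 CPM in controls and 40.0 ± 1.64 in mutants (adjusted p = 0.0287). The venous factor gene Nr2f2, the most abundant there, had a value of -0.17 ± 0.10 (adjusted p = 0.246).

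Of 6 tested tip cell and angiogenic genes, 3 were called higher, Apln (1.02 ± 0.18, adjusted p = 0.0146), Mcam (0.98 ± 0.19, adjusted p = 0.0169) and the basement membrane gene Nid2 (1.66 ± 0.39, adjusted p = 0.0284; log2 fold change ± SE, edgeR). Ednrb, which glia also express, was the most abundant and had a value of 0.09 ± 0.20 (adjusted p = 0.780). Among 13 junction partners, 2 were called higher, Ccm2 (0.46 ± 0.09, adjusted p = 0.0207) and plakoglobin, Jup (0.71 ± 0.17, adjusted p = 0.0295), while Ctnnb1, the beta-catenin gene and the most abundant, had a value of 0.11 ± 0.09 (adjusted p = 0.408). Over the 11 lists together, 32 of 113 tested genes (28.3%) were called higher and 1 (0.885%) lower, beside 8.62% and 6.01% of all genes, with a median log2 fold change of 0.46. Of the 32, 5 had under 10 counts in a control and met the filter through the mutants. The pooled share and median include them, and are no result about the lists. Without control 2 the count higher was 2, without control 3 it was 19, without mutant 1 it was 16 and without mutant 2 it was 17, where 0.318%, 5.72%, 3.99% and 3.16% of all genes were called higher.

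**Figure D4:**
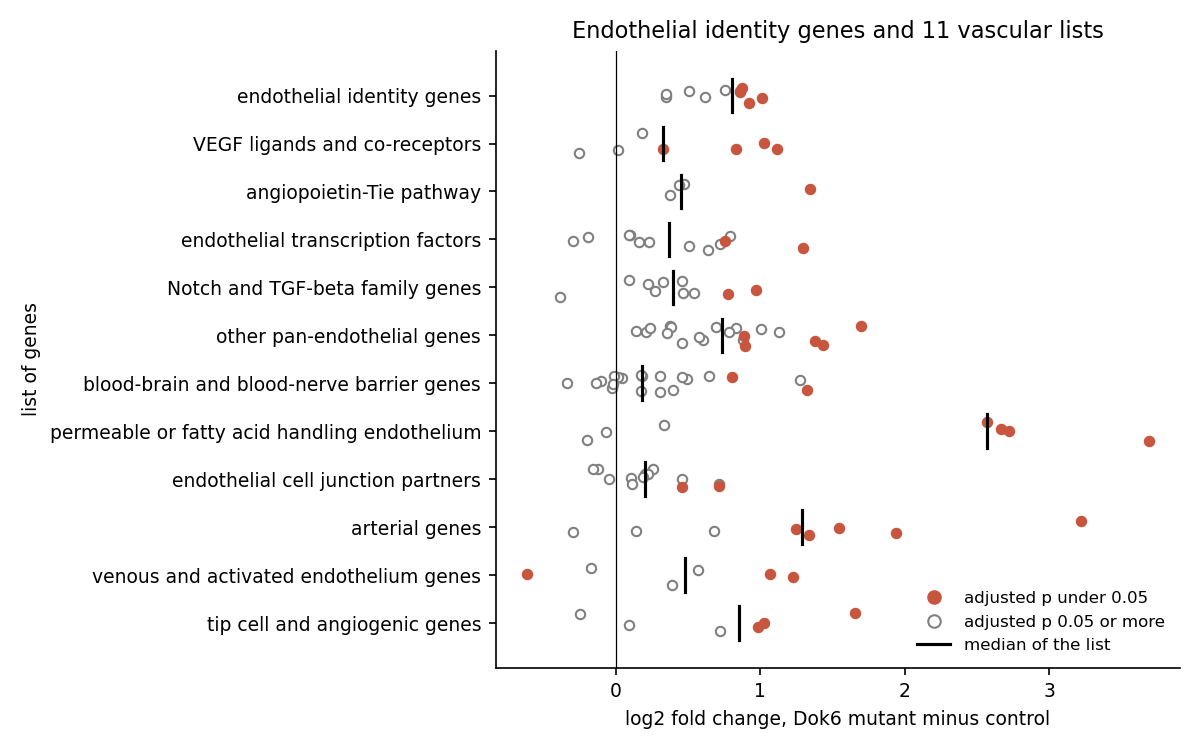
Log2 fold change, Dok6 mutant minus control, of each tested gene in the endothelial identity genes and in 11 vascular lists. Red points passed at an adjusted p under 0.05 by edgeR, open points did not, and black bars are list medians. The median is 0.18 for the barrier genes and 0.81 for the endothelial identity genes, and the red points of the permeable or fatty acid handling list are genes with under 10 counts in a control.

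Lymphatic endothelium gave 0 calls by edgeR among 6 tested markers, with a median log2 fold change of 0.10. At an unadjusted p under 0.05, 1 was higher and 1 lower, and DESeq2 called 1 higher and limma voom 0. Prox1, its defining factor, which neural cells also express, was at 40.0 to 46.5 CPM in controls and 30.3 to 50.4 CPM in mutants. Its receptor gene Lyve1 was at 2.63 to 6.94 CPM in controls and 3.38 to 10.4 CPM in mutants.

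Markers of other cells moved with genotype too, and their part in the endothelial values was not tested. The counts of marker calls below stand beside 8.62% of all genes called higher and 6.01% called lower by edgeR. Pericytes, which wrap capillaries, had 10 markers above 1 CPM in every library, 2 of them called higher by edgeR, 5 by DESeq2 and 1 by limma voom, and a summed level of 282 to 433 CPM in controls and 438 to 565 CPM in mutants. In a ratio chosen after the values were seen, the summed level of the endothelial identity genes over that of the pericyte markers was 0.772, 0.731 and 0.736 in controls and 0.774, 0.817 and 0.915 in mutants. The pericyte markers had the same order of controls by their sum as the endothelial genes, with control 1 highest and control 3 lowest, and mutant 2 was again the lowest mutant. Vascular smooth muscle markers summed to 12.4 to 24.9 CPM in controls and to 334, 48.7 and 46.8 CPM in mutants 1, 2 and 3, with 2 of 8 called higher by edgeR, 1 of these with under 10 counts in every control, 4 by DESeq2 and 1 by limma voom. Leukocyte and macrophage markers summed to 125 to 173 CPM in controls and 176 to 197 CPM in mutants, with 0 of 12 called by edgeR, 4 of them higher at an unadjusted p under 0.05, and 2 called higher by DESeq2 and 1 by limma voom.

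Erythroid markers went the other way. Their sum was 750, 620 and 431 CPM in the controls and 75.6, 211 and 291 CPM in the mutants, and 4 of 6 tested were called lower. Of 3 tested platelet markers 1 was called lower, with sums of 11.5 to 13.4 CPM in controls and 8.61 to 10.6 CPM in mutants.

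Schwann cell markers summed to 154 to 232 CPM in controls and to 345, 1529 and 284 CPM in mutants 1, 2 and 3, with 6 of 11 called higher by edgeR, 5 by DESeq2 and 1 by limma voom. Of the 6, 2 had under 10 counts in a control. Mutant 2, the highest library for Schwann cell RNA, was the lowest mutant for every endothelial identity gene. Fibroblast markers, 5 of 10 called higher, 2 of these with under 10 counts in a control, summed to 301 to 1160 CPM in controls and 2014 to 3183 CPM in mutants. Perineurial markers, 1 of 6 called higher by edgeR and limma voom and 4 by DESeq2, summed to 17.4 to 32.6 CPM in controls and 38.5 to 62.8 CPM in mutants. DRG neuron markers, 8 of 10 called higher, 2 of these with under 10 counts in a control, summed to 227 to 288 CPM in controls and 420 to 1032 CPM in mutants. Skeletal muscle markers, 10 of 11 called higher by edgeR and DESeq2 and 4 by limma voom, of which 6 edgeR calls had under 10 counts in a control, summed to 32.9 to 51.4 CPM in controls and 152 to 697 CPM in mutants, with Tnnc2 at 0 in every library. Genes with so few control counts met the filter through the mutants, so the counts of calls for Schwann cell, fibroblast, DRG neuron and muscle markers are no result about those lists. Of the 14 central nervous system markers, 2 were called lower, Pax2 and Slc32a1.

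**Figure D5:**
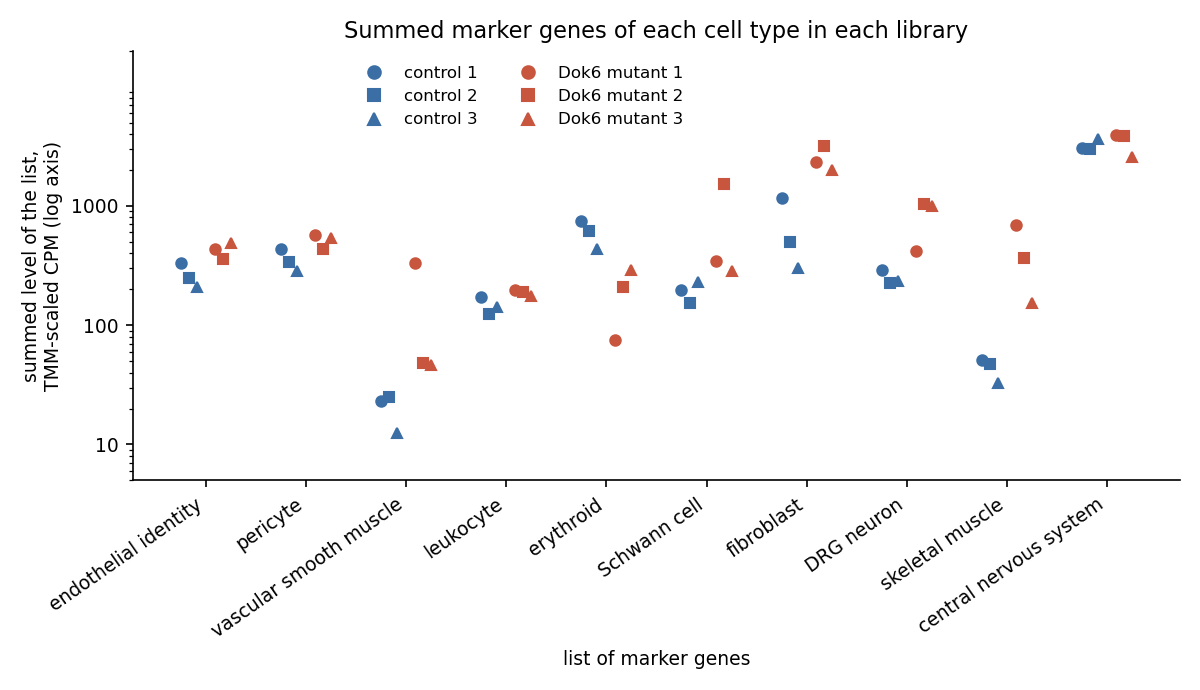
Summed TMM-scaled CPM of marker genes of 10 cell types in each library, on a log axis, with controls in blue and Dok6 mutants in red. Fibroblast, DRG neuron, skeletal muscle and Schwann cell markers were higher in every mutant library and erythroid markers lower, beside the endothelial identity genes at 208 to 334 CPM in controls and 357 to 488 CPM in mutants.

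The genes most like the 10 in their pattern over the 6 libraries were sought among 15666 other genes with a mean of at least 1 CPM, by Pearson's r with the mean centred log2 CPM of the 10. The 10 genes themselves had r between 0.883 (Esam) and 0.971 (Tie1). The 8 highest were 2310039H08Rik (0.997), Slc46a1, Plxnb2, Trrap, Grb10 and Cav1 (0.991 each), and Slc40a1 and She (0.990 each). With 6 points that share library and genotype, such values are a description. She, an endothelial adapter gene, was in the list of pan-endothelial genes. Cav1, the caveolin of endothelial caveolae, was at 33.1, 25.0 and 14.9 CPM in the controls and at 67.5, 47.9 and 77.0 CPM in the mutants. Since it was chosen for its likeness to the 10, this difference is given with no test.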

How the data were processed

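Sciatic nerve RNA at P3 (3 control, 3 Dok6 mutant libraries) was sequenced on an Illumina NovaSeq instrument. The methods name a directional NEBNext Ultra kit and the labels the kit without that word. The authors aligned the reads and deposited raw counts per gene with gene lengths, and their processing notes name the build mm10. The aligner, the counter and the annotation are not given in the sources used here.

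The main test was the quasi-likelihood test of edgeR 4.0.16 (R 4.3.3), fitted to the 6 libraries with genotype as its only term, after filterByExpr and TMM scaling. Benjamini-Hochberg adjustment ran over 17099 genes, with a threshold of 0.05. Standard errors come from the F statistic. CPM use TMM-scaled library sizes, and CPM per kb the deposited lengths. Positions are from GENCODE on GRCm38. Shares and ratios were tested by two-sided exact permutation over the 6 libraries. On counts simulated for this comparison over 17099 genes, edgeR called 88 of 100 genes changed by 1 on the log2 scale. It called 100 of 100 changed by 2, and 8 unchanged genes. Every simulated gene had the same biological coefficient of variation, 16.6%, and the changed genes were above 1 CPM. Genes with a wider spread, such as Cdh5 at 48.7% among controls, were not simulated, so recovery for them is not given.

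The methods call the samples biological replicates. Any 2 libraries differed by more than sampling noise. The members, gene lists and motifs were chosen with earlier results of these data known. The lists name all 10 members, up to 4 genes per vascular list that passed, by p, and the most abundant gene of each. The 8 genes most like the members are named too, and Gja5 was named beyond this rule for its low control counts. The levels of Cav1 were added after its values were seen. 1 listed symbol with 2 rows was left out, and 1 Schwann cell gene is not reported here. The alternatives were DESeq2 1.42.0, limma voom 3.58.1, other scalings and filters, fold thresholds, the replicate number as a block, and leaving out each library.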

Additional observations from a re-analysis of the deposited data

How the results depend on the processing

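No direction of an endothelial identity gene reversed over 14 alternative fits, which draw on the same 6 libraries. Of the 140 pairs of a gene and a fit, 120 stayed on the same side of the threshold, 12 lost a call and 8 gained one. The count of members called higher, 4, was 6 with DESeq2, 4 with limma voom and with RLE, upper-quartile or no scaling, and 7 with no filter on low counts. The share of all genes called higher was 10.6% with DESeq2, 7.86% with limma voom, 8.45%, 8.74% and 10.4% with those scalings in the same order, and 6.08% with no filter. With a log2 fold change above 1 or 2 required it was 1 and 0. With each library left out it was between 0 and 7, and all genes called were between 68 and 2904. The members called lower stayed at 0 throughout. Of 70 alternatives for the shares, 2 moved, both without length scaling, Flt1 to 2.21 and Tie1 to -0.26 percentage points. Of the vascular lists, 2 to 36 genes were called higher and 0 to 2 lower with each library left out, and DESeq2 called 2 lower. Same-numbered libraries had correlations of -0.01, -0.17 and -0.24 between their deviations from the group mean. With 3 libraries per group such values cannot exclude pairing, and the paper's supplement calls the controls littermates. With the replicate block, 3 members were called higher beside 2.53% of all genes, Emcn being lost (adjusted p = 0.0819), 13 genes of the vascular lists were called higher and 0 lower, and 562 genes were called in all beside 2502. The cause of these changes was not tested. At 73 to 118 counts in controls, Emcn had the thinnest counts of the 10. Fold changes as small as those of Cldn5 and Esam were not simulated.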
